A study of Mus musculus with 20 samples.

Results

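The genes described here encode 9 channels of families that set the resting potential and pacing of neurons and glia. Anesthetics are known to act on members of these families. They are the tandem-pore (K2P) potassium channels Kcnk1, Kcnk2, Kcnk3, Kcnk9, Kcnk10 and Kcnk13 and the hyperpolarization-activated channels Hcn2, Hcn3 and Hcn4. These members were taken from a fixed list of names, 9 of the 32285 genes in the count tables, and their raw UMI counts (unique molecular identifiers, 1 per captured RNA molecule) were summed per mouse and per cell class in all 20 libraries. The other 4 K2P genes found above 10 CPM in a class (CPM, a gene's share of the UMIs of its class, scaled to a common total), and a list of known partners of these channels are given only as context.

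K2P channels pass the background potassium current that holds a cell near its resting potential. The TREK members (Kcnk2 and Kcnk10) and the TASK members (Kcnk3 and Kcnk9) open further in volatile anesthetics such as isoflurane, whereas THIK-1 (Kcnk13) is closed by halothane and is known as the resting potassium channel of microglia. HCN channels open on hyperpolarization, are gated by cyclic AMP and carry the pacemaker current. Volatile anesthetics are known to inhibit HCN channels.

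Single-nucleus RNA-seq had been made from the hippocampus of 20 male mice aged 4.5 to 5.5 months. Mice were labelled fAD (APP/PS1, carrying the APPSwe and PS1ΔE9 transgenes under the prion protein promoter) or WT (littermates). They were awake, under general anesthesia (GA, isoflurane begun at 5% and reduced to 1.5% for 3 h) or under ketamine (150 mg/kg with xylazine at 12 mg/kg, also 3 h). Among WT mice the labels gave 6 awake, 3 under GA and 2 under ketamine, and among fAD mice 3 awake, 4 under GA and 2 under ketamine, each mouse being 1 library. The design text of the series gives other sizes, with 5 WT and 4 fAD awake mice and 4 WT and 3 fAD mice under GA, and does not say which mice differ. Each awake, GA and genotype value here follows the sample labels. Ketamine was always given with xylazine, so the agents cannot be told apart, and all 4 ketamine mice belonged to the run of mouse numbers 25 to 29, in which only mouse 29 was awake.

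The libraries held 4743 to 10877 nuclei and 9243992 to 25394891 UMIs, with a median of 1235 to 3169 UMIs per nucleus. Nuclei were sorted into 15 classes by markers that included no Kcnk or Hcn gene. Of 160777 nuclei 139499 (86.8%) were assigned, while 19937 with mixed profiles were left out. Classes are called by their markers ("CA1-like" and so on), except the subicular or cortical excitatory class. Only 2 of its 8 markers were highest there, and 23.4% of its nuclei had mixed profiles. Other classes had limits too. In CA1-like nuclei 5 of 9 markers were at their highest, and in CA3-like nuclei 5 of 7. Mixed profiles made up 27.7% in the interneuron-like class. Mice 1 to 4 stood apart in their mitochondrial share, 0.939% to 1.78% of UMIs against 0.0353% to 0.336% in the other 16. Prnp, the gene whose promoter drives the transgenes, was at a median of 71.7 CPM in CA1-like nuclei of mice labelled WT (37.1 to 181, n = 11) and 160.4 CPM in those labelled fAD (61.4 to 474, n = 9). Prnp did not separate the labels, as 5 of the 9 fAD mice lay below the highest WT mouse. WT-Awake mouse 14 had 181 CPM, and fAD mice 11, 17 and 20 had 61.4, 85.3 and 96.8 CPM. Genotypes are nevertheless given as labelled, and each genotype value below carries this limit. Arc, an activity-dependent gene, was lower in CA1-like nuclei under GA (log2 difference -2.61, SE 0.318, edgeR adjusted p = 0.000146) and under ketamine (log2 difference -3.04, SE 0.463, edgeR adjusted p = 0.000769). By the sample labels the 9 awake mice had 10.1 to 37.2 CPM of Arc, the 7 GA mice 1.04 to 5.79 CPM and the 4 ketamine mice 0.88 to 2.94 CPM, so awake mice overlapped neither anesthetized state. Pairs of libraries shared 5 to 35 cell barcodes (median 17).

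In the GENCODE annotation of GRCm38, Kcnk13 spans chr12:99964499-100062682 on the plus strand and Hcn2 spans chr10:79716634-79736108 on the plus strand, and neither overlaps another gene of the count table. Kcnk9 (chr15:72501089-72546340, minus strand) and Hcn4 (chr9:58823412-58863175, plus strand) also overlap none. Kcnk1 (chr8:125995170-126030685, plus strand) overlaps the antisense gene Gm45875. Kcnk3 (chr5:30588170-30625271, plus strand) overlaps Gm9899 on the other strand. Kcnk10 (chr12:98429437-98578310, minus strand) overlaps the antisense gene Gm40893. Kcnk2 (chr1:189207930-189402273, minus strand) overlaps the antisense gene A430027H14Rik and, on its own strand, 2900042K21Rik, whose shared reads could not be assigned with certainty to either. Hcn3 (chr3:89146074-89160196, minus strand) overlaps the end of Pklr on the other strand.

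The 250 bases before the RefSeq start of 3 members whose highest mean level was in a glial class are shown to go with the levels below, read 5′ to 3′ on the strand of the gene in GRCm38.p6. Kcnk13 was highest in oligodendrocyte-like and microglia-like nuclei (chr12:99964249-99964498, plus strand), Hcn2 in oligodendrocyte-like nuclei (chr10:79716384-79716633, plus strand) and Kcnk1 in astrocyte-like nuclei (chr8:125994852-125995101, plus strand). Capitals mark matches to the motifs searched on both strands.
Kcnk13: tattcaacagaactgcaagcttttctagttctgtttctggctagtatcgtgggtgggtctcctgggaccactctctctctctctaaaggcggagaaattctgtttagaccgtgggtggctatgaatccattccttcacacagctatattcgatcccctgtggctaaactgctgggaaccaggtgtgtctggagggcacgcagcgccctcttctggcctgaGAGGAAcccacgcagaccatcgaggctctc
Hcn2: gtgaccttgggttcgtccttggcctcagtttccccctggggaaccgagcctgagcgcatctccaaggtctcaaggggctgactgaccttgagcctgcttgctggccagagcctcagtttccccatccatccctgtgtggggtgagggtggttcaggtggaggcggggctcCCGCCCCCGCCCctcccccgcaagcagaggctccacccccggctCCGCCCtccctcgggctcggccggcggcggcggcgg
Kcnk1: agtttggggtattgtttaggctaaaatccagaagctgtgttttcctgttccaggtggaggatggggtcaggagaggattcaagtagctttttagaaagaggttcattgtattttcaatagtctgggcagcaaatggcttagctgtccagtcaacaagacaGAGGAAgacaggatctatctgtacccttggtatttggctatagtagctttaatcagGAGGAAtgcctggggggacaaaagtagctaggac

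These windows differed in base composition: GC made up 52.8% of the Kcnk13 window, 70.4% of the Hcn2 window and 44.4% of the Kcnk1 window, against a median of 52.4% over 32851 RefSeq promoters. The letters GAGGAA, the core bound by the ETS factor of myeloid cells, stood at positions -30 to -25 before the Kcnk13 start and at -90 to -85 and -34 to -29 before the Kcnk1 start. It was held by 23.25% of all promoters. GGGCGG, the GC box, was found 3 times on the opposite strand of the Hcn2 window, with its last base at -75, -69 and -31. It was held by 32.74% of all promoters. ACAAAG (in 16.46% of promoters), TATAAA (12.37%) and TGACG (17.77%) were not found in these windows. Promoter entries were matched for 6 of the 9 members, and the window of Kcnk10 is not printed because it runs into the GENCODE gene span.

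Levels are given as CPM within a class of a mouse, as mean ± SD over mice with at least 50 nuclei of that class, and are compared only within a gene. Neighbouring classes in the order of a gene's means were compared within mice by a two-sided sign-flip permutation test on log2(CPM + 1), exact below 10 mice, with Benjamini-Hochberg adjustment over 92 pairs. Of these, 31 differed at an adjusted p below 0.05. A further 21 class pairs were tested after their values had been seen, with their own adjustment. Low levels can come from RNA released by other cells, so values of a few CPM are not read as expression. Mice 1 to 4 had 28.6 to 68.3 CPM of Kcnk1 in microglia-like nuclei, and the other mice with at least 50 of them 0 to 23.9 CPM. In CA1-like nuclei mice 1 to 4 had 30.6 to 45.6 CPM of Kcnk1 and the other mice 14.5 to 28.9 CPM. The sets overlapped in CA3-like and OPC-like nuclei. The source of these differences was not tested, and means over mice cover both sets.

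**Figure D1:**
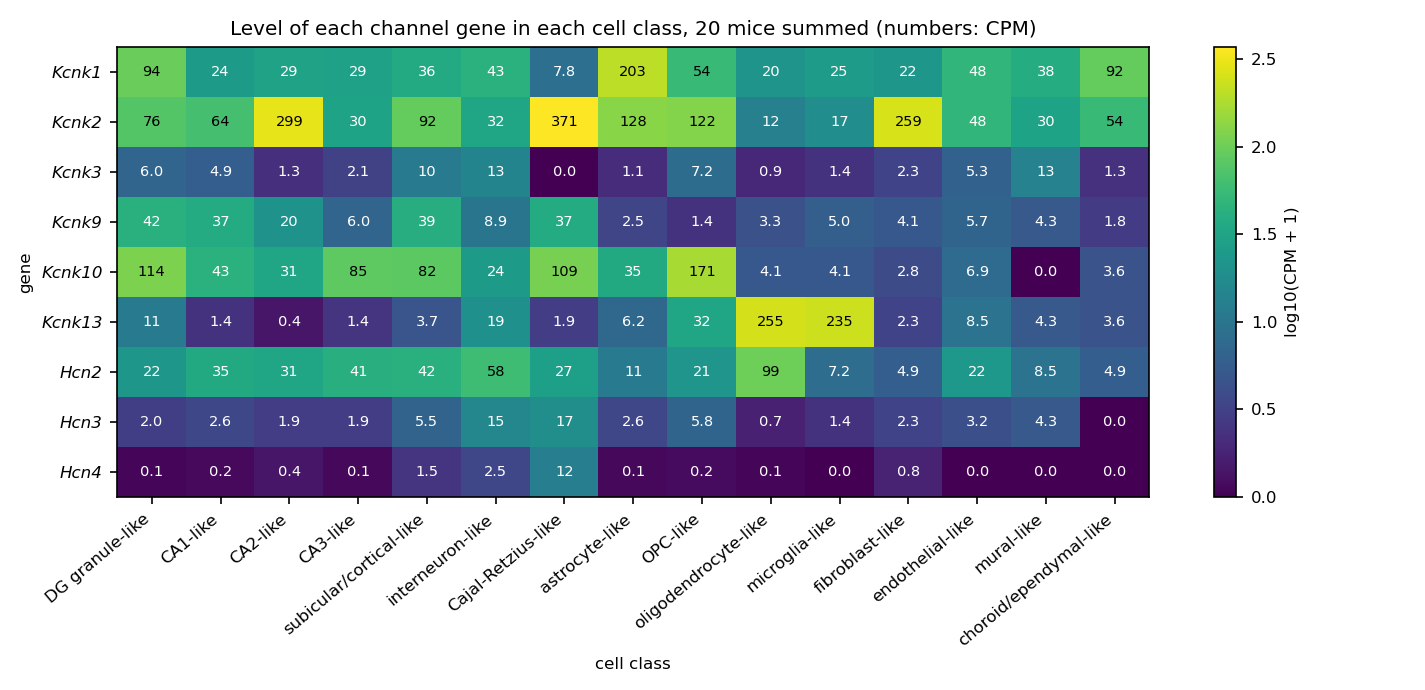
Level of the 9 members (rows) in 15 cell classes (columns), with the UMIs of 20 mice summed. Color gives log10(CPM + 1) and the printed numbers give CPM, which differ from the means over mice in the text. The leading classes differ between genes, with Kcnk13 at 255 CPM in oligodendrocyte-like and 235 CPM in microglia-like nuclei and Kcnk2 at 371 CPM in Cajal-Retzius-like nuclei.

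Of the TREK channels, Kcnk2 (TREK-1) was highest outside the main neuronal classes. It reached 337 CPM ± 226 (SD, n = 14) in fibroblast-like and 257 CPM ± 74.5 (SD, n = 11) in CA2-like nuclei, an order that was not tested because 5 mice had at least 50 nuclei of both. The mice left out of the CA2-like mean, with under 50 such nuclei, had 231 to 484 CPM. That mean thus depends on which mice were kept, and no order is read from these means. The fibroblast-like mean covers mice from 60.9 to 769 CPM, and in the 4 ketamine mice, at 60.9 to 127 CPM, the order was the other way. Their CA2-like nuclei had 358 to 484 CPM, although only 1 of them (413 CPM) held at least 50. The 523 Cajal-Retzius-like nuclei pooled over mice gave 371 CPM (exact Poisson 95% interval 320 to 427). Among pyramidal classes Kcnk2 was highest in CA2-like nuclei. This level exceeded that of CA1-like nuclei (65.7 CPM ± 11.8, n = 20) in 11 of 11 mice by a log2 difference of 2.07 (permutation test, adjusted p = 0.00116). CA1-like nuclei in turn exceeded CA3-like nuclei (29.1 CPM ± 8.53, n = 20) in 20 of 20 mice by a log2 difference of 1.18. Astrocyte-like (128 CPM ± 37.5) and OPC-like nuclei (122 CPM ± 34.4; oligodendrocyte precursors) did not differ beyond their spread (permutation adjusted p = 0.848), nor did the subicular or cortical (89.5 CPM) and DG granule-like classes (82.8 CPM; permutation adjusted p = 0.363). Kcnk2 was lowest in oligodendrocyte-like (11.3 CPM) and microglia-like nuclei (11.3 CPM). The microglia-like mean covers 25.4 to 41.0 CPM in mice 1 to 4 and 0 to 22.8 CPM in the other mice.

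Kcnk10 (TREK-2) was led by OPC-like nuclei at 169 CPM ± 50.7 (SD, n = 20), above DG granule-like nuclei at 115 CPM ± 18.7 in 16 of 20 mice (log2 difference 0.49, permutation adjusted p = 0.00389). It was low in the mature lineage, where oligodendrocyte-like nuclei had 4.17 CPM ± 3.19, below OPC-like nuclei in 20 of 20 mice by a log2 difference of 5.24 (permutation p = 1e-05, the smallest that 100000 resamples can give). Among hippocampal neurons the order ran from DG granule-like to CA3-like (81.4 CPM ± 14.6) to CA1-like nuclei (42.7 CPM ± 7.98). CA3-like nuclei exceeded CA1-like nuclei in 20 of 20 mice (log2 difference 0.91), the opposite order to that of Kcnk2, whose CA1-like level was the higher of the pair. CA3-like nuclei and the subicular or cortical class (78.1 CPM) did not differ beyond their spread (permutation adjusted p = 0.643).

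Kcnk1 (TWIK-1), a weakly conducting member of the family, was highest in astrocyte-like nuclei at 205 CPM ± 73.6 (SD, n = 20), where single mice ran from 88.6 to 397 CPM. It exceeded DG granule-like nuclei (90.0 CPM ± 25.9) in 20 of 20 mice by a log2 difference of 1.15 and choroid or ependymal-like nuclei (94.95 CPM ± 33.0, n = 7) in 7 of 7 mice (exact permutation adjusted p = 0.0471). DG granule-like nuclei were in turn above OPC-like nuclei (50.5 CPM ± 23.2) in 20 of 20 mice (permutation adjusted p = 0.000115). CA3-like (29.2 CPM), CA2-like (27.6 CPM) and CA1-like nuclei (24.8 CPM) did not differ between neighbours, and oligodendrocyte-like nuclei were lowest of the tested classes at 16.8 CPM.

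Of the TASK channels, Kcnk9 (TASK-3) stood at 42.8 CPM ± 7.01 (SD, n = 20) in DG granule-like, 39.4 CPM ± 8.50 in subicular or cortical and 37.5 CPM ± 8.17 in CA1-like nuclei, levels that did not differ between neighbours (permutation adjusted p = 0.19 and 0.552). CA3-like nuclei held 6.29 CPM ± 4.28, below CA1-like nuclei in 20 of 20 mice by a log2 difference of 2.53 and below DG granule-like nuclei in 20 of 20 mice by 2.73. Astrocyte-, oligodendrocyte-, OPC- and microglia-like nuclei held 1.84 to 3.81 CPM. Kcnk3 (TASK-1) was sparse, with 2085 UMIs in all. It had 13.7 CPM ± 5.56 in interneuron-like and 11.0 CPM ± 4.03 in subicular or cortical nuclei, which did not differ beyond their spread (permutation adjusted p = 0.184). Kcnk3 was at 7.31 CPM in OPC-like, 6.26 CPM in DG granule-like, 5.20 CPM in CA1-like and 2.03 CPM in CA3-like nuclei. The last 4 are levels of a few CPM, and no order is read from them.

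Kcnk13 (THIK-1) was high in glial classes of separate lineages, with 263 CPM ± 61.2 (SD, n = 20; 176 to 403) in oligodendrocyte-like and 248 CPM ± 67.8 (n = 17; 148 to 359) in microglia-like nuclei, which differed by a log2 difference of 0.07 in the 17 mice with both (permutation adjusted p = 0.668). Both were far above OPC-like nuclei (33.3 CPM ± 14.2), oligodendrocyte-like nuclei in 20 of 20 mice by a log2 difference of 3.05 and microglia-like nuclei in 17 of 17 mice by 3.02. Within the oligodendrocyte lineage Kcnk13 and Kcnk10 thus had opposite orders, Kcnk13 higher in the mature class and Kcnk10 higher in precursors, each in 20 of 20 mice. Interneuron-like nuclei held 18.2 CPM and DG granule-like nuclei 11.0 CPM, whereas CA1-like nuclei held 1.31 CPM and CA3-like nuclei 1.49 CPM.

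Among the HCN members, Hcn2 was highest in oligodendrocyte-like nuclei at 102 CPM ± 45.7 (SD, n = 20; 47.0 to 203), above interneuron-like nuclei (56.7 CPM ± 16.7) in 19 of 20 mice (log2 difference 0.77, permutation adjusted p = 0.000184). Interneuron-like nuclei exceeded the subicular or cortical class (42.1 CPM ± 10.6) in 20 of 20 mice, while CA3-like (39.6 CPM), CA1-like (35.0 CPM) and CA2-like nuclei (30.8 CPM) did not differ between neighbours. Astrocyte-like nuclei held 9.79 CPM. Hcn3 was led by interneuron-like nuclei at 14.8 CPM ± 4.39, above the subicular or cortical class (5.47 CPM ± 1.98) in 20 of 20 mice by a log2 difference of 1.31 (permutation adjusted p = 0.000115). Hcn4, the pacemaker channel of the heart, gave 211 UMIs in all. Over mice with at least 50 nuclei its highest means were 2.64 CPM in interneuron-like and 1.59 CPM in subicular or cortical nuclei. These did not differ at this depth (permutation adjusted p = 0.053). Cajal-Retzius-like nuclei, of which no mouse had 50, are not covered by these means. No Hcn4 UMI was found in microglia-like nuclei, which allows up to 1.67 CPM (upper end of the exact Poisson 95% interval, counting error only).

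**Figure D2:**
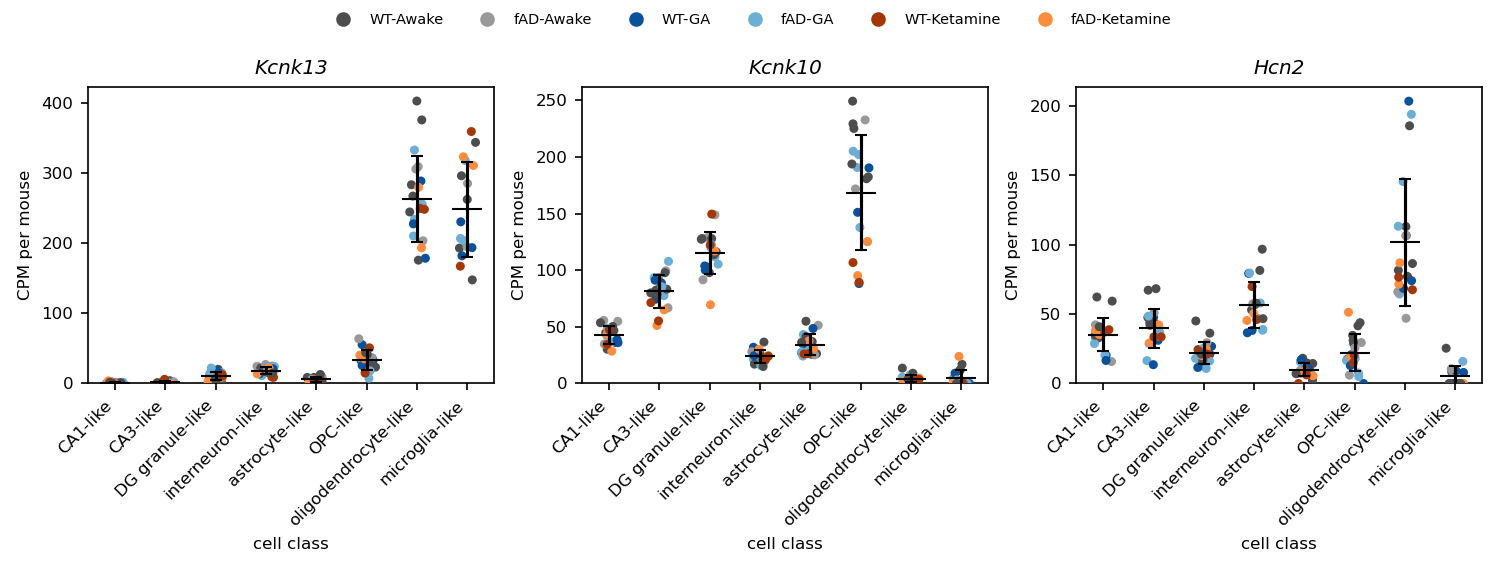
CPM of Kcnk13, Kcnk10 and Hcn2 in 8 classes, 1 point per mouse colored by group, with bars for mean ± SD. Kcnk13 is high in oligodendrocyte-like (176 to 403 CPM) and microglia-like nuclei (148 to 359 CPM), Kcnk10 in OPC-like nuclei (88.2 to 249 CPM), and Hcn2 in oligodendrocyte-like nuclei (47.0 to 203 CPM).

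Interneuron-like nuclei were split by markers into an MGE-like group (from the medial ganglionic eminence, by Lhx6, Sst, Pvalb, Satb1 and Sox6) and a CGE-like group (from the caudal eminence, by Adarb2, Vip, Cnr1, Npas1 and Lamp5), and 6 of the 8 members other than Hcn4 differed between them. Kcnk10 had 32.9 CPM in MGE-like against 12.5 CPM in CGE-like nuclei (log2 difference 1.59, higher in 18 of 20 mice). Kcnk3 had 18.6 against 7.68 CPM (1.25, 18 of 20 mice), Kcnk1 49.6 against 29.7 CPM (0.87, 20 of 20 mice) and Hcn2 66.0 against 44.6 CPM (0.56, 18 of 20 mice). The order was the other way for Kcnk9, with 3.89 CPM in MGE-like and 15.3 CPM in CGE-like nuclei (log2 difference -1.90), and for Kcnk13, with 13.2 and 24.7 CPM (-1.001). Hcn4 had 1.29 and 3.99 CPM, levels that are not read as expression, although they differed (log2 difference -1.14, permutation adjusted p = 0.00237). The TASK pair was therefore split, Kcnk3 being higher in MGE-like and Kcnk9 in CGE-like nuclei. The MGE-like level of Kcnk9 is itself one of a few CPM. Hcn3 did not differ (14.5 and 14.8 CPM, permutation adjusted p = 0.724), and Kcnk2 missed the threshold (34.5 and 27.3 CPM, permutation adjusted p = 0.0534).

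Across the 15 classes the genes whose log2 mean levels correlated best with a member, among 15704 genes at 10 CPM or more in a class, were Lrrc2 for Kcnk1 (Pearson r = 0.883), Angpt1 for Kcnk2 (0.788), Gm15942 for Kcnk3 (0.847), A830031A19Rik for Kcnk9 (0.901), Mir9-3hg for Kcnk10 (0.935), Pes1 for Kcnk13 (0.916), Gm26807 for Hcn2 (0.926), Gm12120 for Hcn3 (0.888) and Ecel1 for Hcn4 (0.965). These are descriptions over 15 points that share libraries and differ in depth, and the Hcn4 values rest on few UMIs. Among members themselves the closest pair was Hcn3 and Hcn4 (r = 0.776) and the most opposed was Kcnk2 and Kcnk13 (r = -0.644).

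The first comparison asked whether channel transcripts differed between GA and awake mice. Kcnk10 was lower under GA in the subicular or cortical class, at 67.7 CPM ± 17.6 (SD, n = 7) against 92.0 CPM ± 17.6 (n = 9), a log2 difference of -0.56 (SE 0.157, edgeR adjusted p = 0.0337). It was the only call among the 52 member and class pairs of 90 that passed the filter on low counts. Over all genes and classes 4.37% of 109198 tests were called (1.79% as lower), and 7.22% in that class, so a count of 1 among 52 is near the background and is not a result about the channels as a set. At an unadjusted p under 0.05, 8 of the 52 pairs passed (15.4%, beside 16.2% of all tests), 8 of them lower and 0 higher under GA, while 7.56% of all tests passed as lower and 8.67% as higher. The median log2 difference of the 52 pairs was -0.14 (38 lower, 14 higher), while the median over all genes tested in a class lay between -0.087 and 0.032.

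Kcnk10 in subicular or cortical nuclei ran from 80.3 to 109 CPM in the 6 WT-Awake mice (median 83.7). The 3 fAD-Awake mice had 121, 100.4 and 64.9 CPM. The 3 WT-GA mice had 67.3, 81.6 and 80.7 CPM, and the 4 fAD-GA mice 76.3, 74.2, 63.2 and 30.7 CPM. The groups overlapped, since 1 awake mouse (64.9 CPM) lay below 5 of the 7 GA mice and 1 GA mouse was far below the rest. Within each of the 4 runs of mouse numbers with both states the GA mean was the lower, by 14.4 to 47.5 CPM. The call was lost with 6 of the 20 mice left out in turn (mice 2, 3, 10, 14, 15 and 18; adjusted p up to 0.101), and with only the nuclei that the marker counts assign by themselves the log2 difference was -0.19 (edgeR adjusted p = 0.843). It was -0.53 with the run as a block (edgeR adjusted p = 0.0514) and -0.51 without mice 1 to 4 (edgeR adjusted p = 0.157). The log2 difference of Kcnk10 was below 0 in 7 of 7 classes tested (-0.56 to -0.00), and only that 1 was called.

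Kcnk2 in CA1-like nuclei was the nearest to a second call, with 58.5 CPM ± 13.4 (SD, n = 7) under GA against 71.5 CPM ± 9.91 (n = 9) awake, a log2 difference of -0.38 (SE 0.122, edgeR adjusted p = 0.0656). The 6 WT-Awake mice ran from 57.7 to 86.5 CPM, and the 3 fAD-Awake mice had 77.1, 69.6 and 62.6 CPM. The 3 WT-GA mice had 74.2, 48.8 and 52.1 CPM, and the 4 fAD-GA mice 80.3, 56.4, 44.8 and 53.1 CPM. The 2 GA mice of the first run (74.2 and 80.3 CPM) lay among the awake mice and the other 5 GA mice lay below all 9. GA means were lower in 4 of 4 runs, and with the run as a block the pair was called (log2 difference -0.32, edgeR adjusted p = 0.0243). Kcnk2 in OPC-like nuclei had 101 CPM ± 20.3 under GA and 145 CPM ± 36.8 awake (log2 difference -0.54, edgeR adjusted p = 0.237), also lower in 4 of 4 runs.

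Hcn2 had its uncalled differences in the same direction in 3 classes. In CA1-like nuclei it had 27.6 CPM ± 8.55 (SD, n = 7) under GA and 39.7 CPM ± 14.1 (n = 9) awake (log2 difference -0.53, edgeR adjusted p = 0.187). In CA3-like nuclei it had 31.8 CPM ± 13.8 and 47.8 CPM ± 12.6 (-0.54, edgeR adjusted p = 0.327; -0.81 without mouse 16 and -0.35 without mouse 18), and in OPC-like nuclei 11.6 CPM ± 7.60 and 28.7 CPM ± 11.7 (-1.10, edgeR adjusted p = 0.403). In each of them the GA mean was lower in 4 of 4 runs, which hold the same mice. The run of mice 10 to 13 had 1 GA mouse and that of mice 18 to 20 had 1 awake mouse. Mice overlapped within runs. In CA3-like nuclei awake mouse 19 had 43.6 CPM, and GA mice 18 and 20 of its run had 13.6 and 48.5 CPM. In oligodendrocyte-like nuclei, where Hcn2 was highest, the log2 difference was 0.49 (SE 0.286, edgeR adjusted p = 0.387). Kcnk13, Kcnk1, Kcnk3, Kcnk9 and Hcn3 had no call, and Kcnk13 gave -0.13 (SE 0.212) in microglia-like and -0.14 (SE 0.189) in oligodendrocyte-like nuclei. Standard errors over the 52 pairs were 0.12 to 0.667 (median 0.228), so small changes were not detectable.

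**Figure D3:**
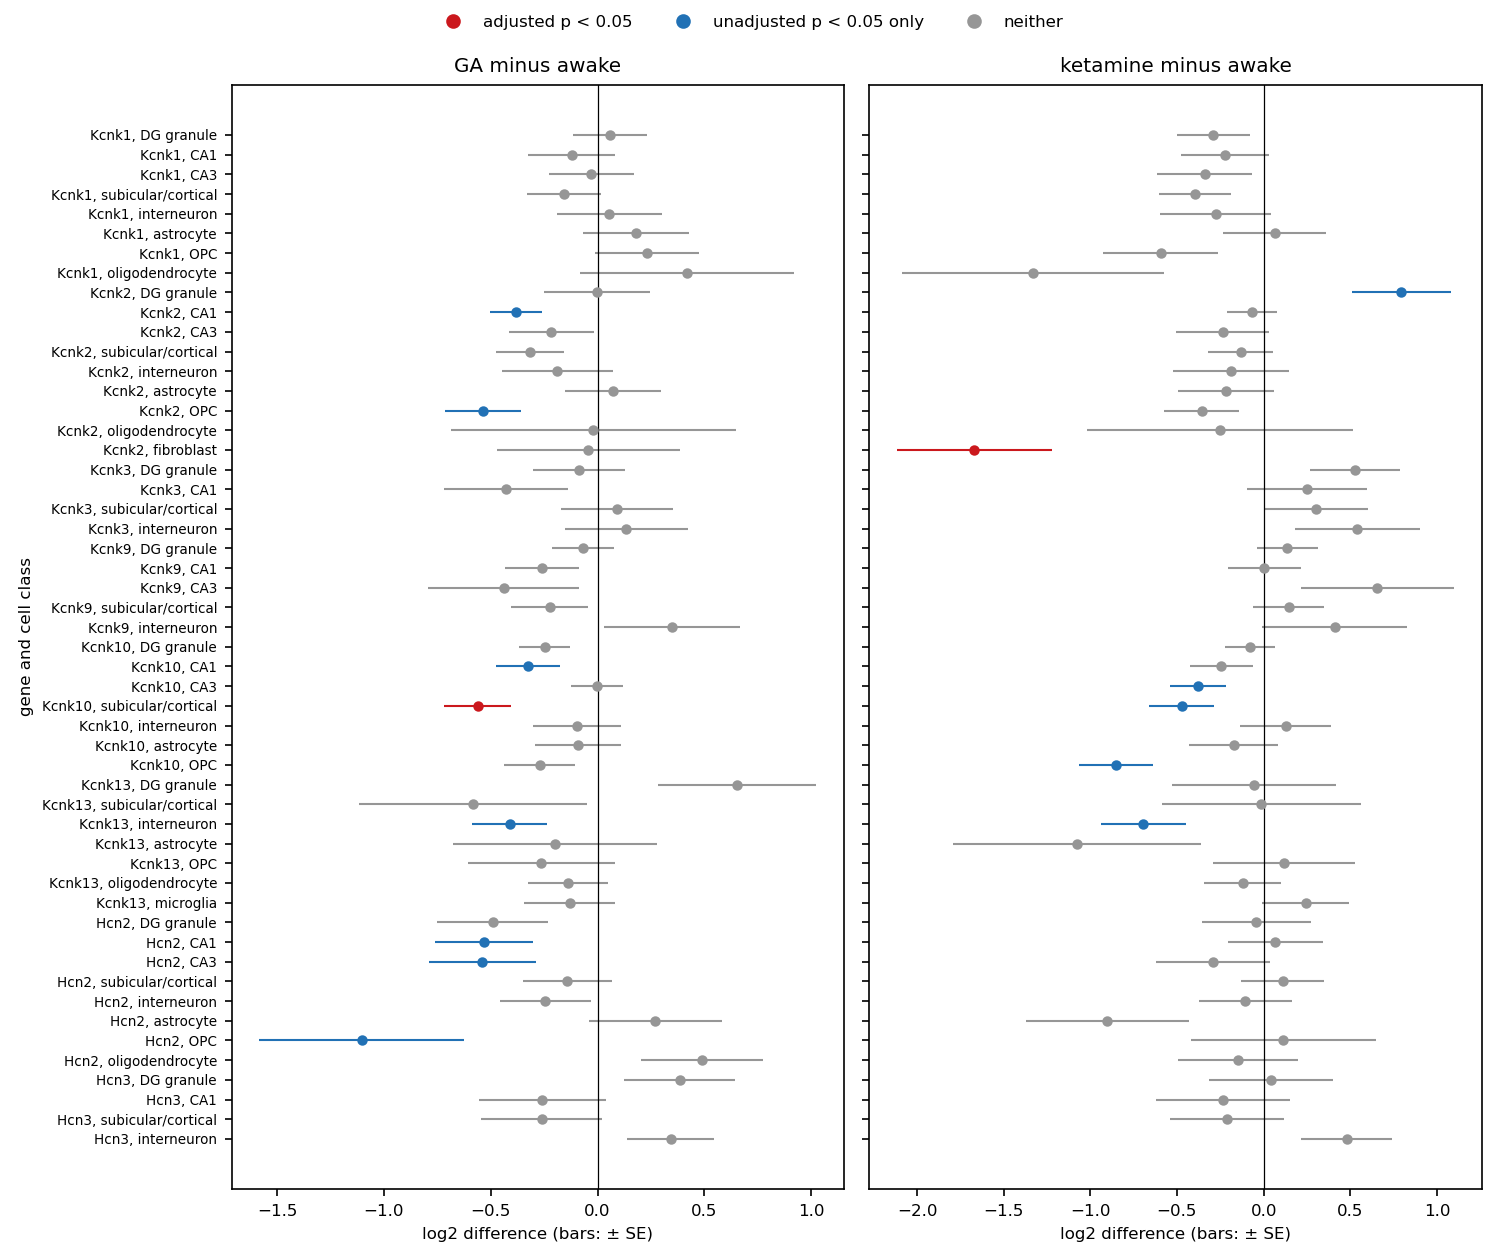
Log2 difference ± SE from the edgeR fit of the 52 member and class pairs, for GA minus awake and ketamine minus awake. Red points passed an adjusted p of 0.05 (1 pair in each comparison) and blue points only an unadjusted p of 0.05.

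Under ketamine the called member was Kcnk2 in fibroblast-like nuclei, at 99.3 CPM ± 29.8 (SD, n = 4) against 424 CPM ± 178 (n = 6) awake and 444 CPM ± 249 (n = 4) under GA. The log2 differences were -1.67 (SE 0.445, edgeR adjusted p = 0.028) from awake and -1.63 (SE 0.471, edgeR adjusted p = 0.0272) from GA, which share the ketamine mice. In each comparison it was 1 of 52 pairs. Of all tests, 7.8% were called for ketamine against awake (3.76% as lower) and 5.94% for ketamine against GA (2.98% as lower). In the fibroblast-like class these shares were 19.3% and 26.4%.

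The 2 fAD-Ketamine mice had 60.9 and 118 CPM and the 2 WT-Ketamine mice 127 and 91.0 CPM. The 4 WT-Awake mice with at least 50 fibroblast-like nuclei had 516, 570, 299 and 138 CPM, and the 2 fAD-Awake mice 599 and 420 CPM. The 2 WT-GA mice had 191 and 490 CPM, and the 2 fAD-GA mice 327 and 769 CPM. Among mice with at least 50 such nuclei no ketamine mouse overlapped the others. A WT-Awake mouse left out with 44 nuclei had 89.0 CPM, and the lowest awake value in the fit, 138 CPM, was that of mouse 29, the awake mouse of the same run. With the run as a block the log2 difference from awake was -0.37 (edgeR adjusted p = 0.994) and that from GA was 0.26 (edgeR adjusted p = 0.994), so treatment and run cannot be told apart. The call from awake was lost without mouse 2, 25, 26, 27 or 28, and that from GA without mouse 4, 11, 18, 25, 26, 27 or 28. Without mice 1 to 4 the log2 differences were -1.42 (edgeR adjusted p = 0.228) from awake and -2.04 (edgeR adjusted p = 0.141) from GA. The ketamine mice had 325 to 905 fibroblast-like nuclei and mouse 29 had 339. The other mice in the fit had 79 to 184, apart from mouse 10 with 610. The summed level of 8 mural markers was 162 to 219 CPM in the ketamine mice and 291 to 1582 CPM in the others. That of 10 DG granule markers overlapped, at 1251 to 4134 CPM in ketamine mice and 173 to 3609 CPM in the others. The part of these in the result was not tested. By marker counts alone no mouse had 50 such nuclei, so the call could not be tested with those nuclei.

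Kcnk10 in OPC-like nuclei fell just short of the threshold, with 104 CPM ± 15.9 (SD, n = 4) under ketamine against 199 CPM ± 38.9 (n = 9) awake, a log2 difference of -0.85 (SE 0.215, edgeR adjusted p = 0.0522). The 4 ketamine mice had 95.2, 125, 89.3 and 107 CPM, the 3 fAD-Awake mice 172, 125 and 233 CPM, and the 6 WT-Awake mice 181 to 249 CPM. The groups met only at 125 CPM. Mouse 29 had 182 CPM, above all 4 ketamine mice of its run. Kcnk2 in DG granule-like nuclei was at 119 CPM ± 30.0 under ketamine and 71.0 CPM ± 22.2 awake (log2 difference 0.79, edgeR adjusted p = 0.0713). Mouse 29 had 90.3 CPM there, the highest of the awake means of the 5 runs (34.8 to 90.3 CPM). With the run as a block the log2 differences were -0.65 for Kcnk10 (edgeR adjusted p = 0.880) and 0.38 for Kcnk2 (edgeR adjusted p = 0.801). The count of pairs with an unadjusted p under 0.05 was 6 against awake and 11 against GA (11.5% and 21.2%), next to 25.6% and 24.1% of all tests. It was 3 in each comparison with the run as a block. The unadjusted share of all tests in that fit is not given here, so nothing is read from the drop.

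**Figure D4:**
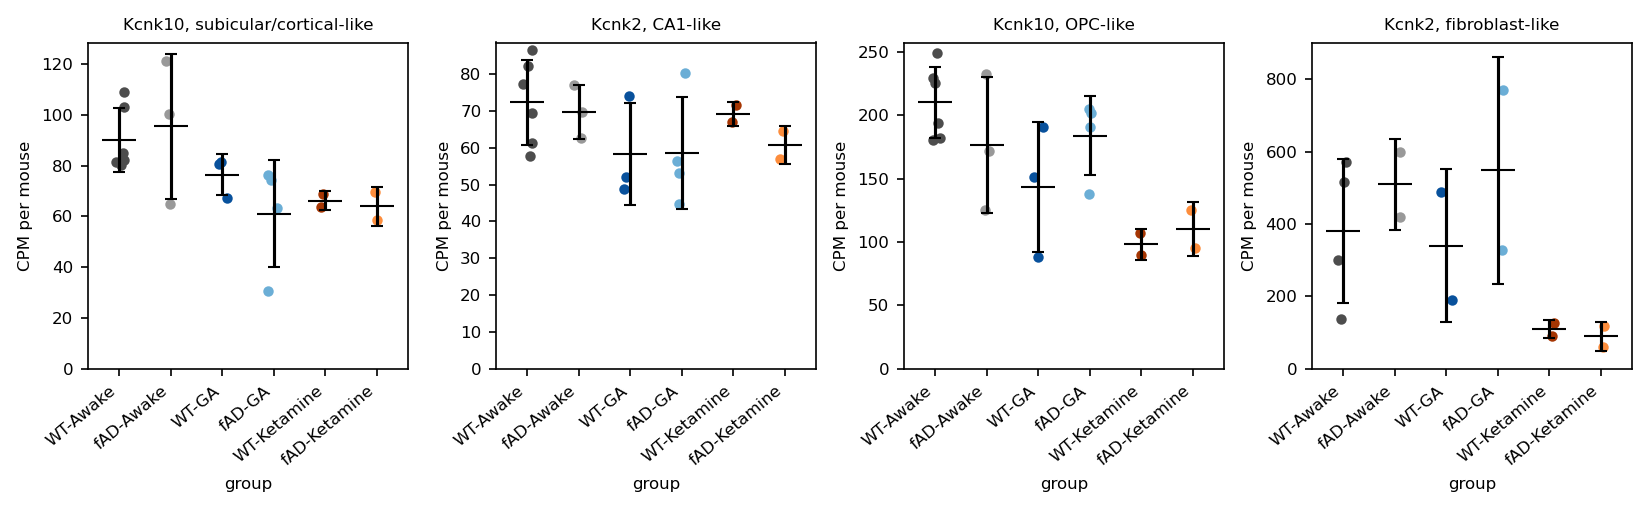
CPM by group for 4 member and class pairs, 1 point per mouse, with bars for mean ± SD. GA points for Kcnk10 in subicular or cortical nuclei run from 30.7 to 81.6 CPM against 64.9 to 121 awake, and the 4 ketamine points for Kcnk2 in fibroblast-like nuclei run from 60.9 to 127 CPM.

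For genotype, fAD against WT over the awake and GA mice gave 0 calls among the 52 pairs by edgeR, 0 by DESeq2 and 0 at an unadjusted p under 0.05, while 0% of all 109198 tests were called and 1.39% passed unadjusted. The log2 differences ran from -0.46 to 0.80 with a median of -0.03. Kcnk13 in microglia-like nuclei differed by 0.10 (SE 0.212). The 2 fAD-Awake mice with at least 50 nuclei had 195 and 285 CPM, and the 5 WT-Awake mice ran from 148 to 344 CPM, enclosing both. For Hcn2 the log2 difference was below 0 in 8 of 8 classes (-0.41 to -0.08), without a call. These values, and the interaction below, rest on genotype labels that Prnp did not separate.

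The test of whether the GA difference itself depended on genotype also gave 0 calls by edgeR (0% of all tests) and by DESeq2. At an unadjusted threshold of 0.05 it gave 2 pairs by edgeR, beside 3.13% of all edgeR tests. DESeq2 gave 3 pairs, and its share of all tests is not given here. The 2 edgeR pairs were Kcnk1 in OPC-like (interaction -1.40, SE 0.485, edgeR adjusted p = 0.9998) and in interneuron-like nuclei (-1.16, SE 0.487, edgeR adjusted p = 0.939). The interaction of Kcnk1 was below 0 in 8 of 8 classes (-1.72 to -0.17), which hold the same mice. That of Hcn2 was above 0 in 8 of 8 (0.32 to 0.92). The interneuron value was -0.43 without mouse 2, -1.50 without mouse 10 and -0.51 without mice 1 to 4, whereas the OPC value stayed between -1.61 and -1.26 with any 1 mouse left out. In OPC-like nuclei the 3 WT-GA mice had 58.8, 93.5 and 90.0 CPM of Kcnk1 and the 6 WT-Awake mice 13.8 to 63.9 CPM. The 4 fAD-GA mice had 55.1, 16.6, 60.8 and 54.1 CPM and the 3 fAD-Awake mice 75.4, 51.6 and 76.5 CPM. The lowest WT-Awake value rests on 1 UMI (mouse 12) and the lowest fAD-GA value on 2 UMIs (mouse 11). Within WT alone edgeR called 0 pairs for GA (0.722% of all tests) with 9 passing unadjusted (12.4% of all tests), and within fAD alone 0 (0.506%) with 2 passing unadjusted (9.72%).

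Among the other K2P genes, Kcnk4, Kcnk5, Kcnk6 and Kcnk12 passed the filter in 12 pairs with a class, and edgeR called 1 pair lower and 0 higher under GA. This count of 1 among 12 is not read as a result about these genes, as 4.37% of all tests were called. It was Kcnk12 (THIK-2, the closest relative of Kcnk13) in the subicular or cortical class, at 29.1 CPM ± 4.40 (SD, n = 7; 24.1 to 36.3) under GA and 37.5 CPM ± 7.32 (n = 9; 29.3 to 53.5) awake. The log2 difference was -0.49 (SE 0.136, edgeR adjusted p = 0.0336). The groups overlapped, and the GA mean was lower in 4 of 4 runs, by 6.28 to 13.98 CPM. The call held in 13 of 20 fits that left out a mouse (edgeR adjusted p up to 0.0812) and was lost without mouse 2, 3, 4, 10, 16, 17 or 18. It was also lost without the filter on low counts (edgeR adjusted p = 0.0967), with the marker gate alone (0.112), without the 5% of nuclei with most UMIs (0.0672), with only the 16 awake and GA mice (0.0547) and without mice 1 to 4 (0.151), and it held with the run as a block (0.0471). Ketamine against awake and against GA gave 0 calls by edgeR, with 2 pairs each at an unadjusted p under 0.05 (16.7% of the 12, beside 25.6% and 24.1% of all tests). The highest class of each by pooled level was microglia-like for Kcnk6 (82.4 CPM) and Kcnk12 (56.6 CPM), fibroblast-like for Kcnk5 (41.6 CPM) and CA3-like for Kcnk4 (23.3 CPM). Kcnk7, Kcnk15, Kcnk16 and Kcnk18 stayed under 10 CPM in each class.

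Partners and regulators of the channels, 23 of 25 tested in 203 pairs with a class, gave 1 higher and 10 lower calls under GA. That is 5.42% of the pairs, 4.93% as lower, beside 4.37% and 1.79% of all tests, and nothing is read from it about the list. The count was 18 (8.87%) with the run as a block, beside 7.26% of all tests in that fit. The higher call was Pex5l, which encodes TRIP8b, the auxiliary subunit that controls HCN trafficking and cyclic AMP gating. In oligodendrocyte-like nuclei it was at 4998 CPM ± 627 (SD, n = 7; 4249.9 to 6197) under GA and 2648 CPM ± 428 (n = 9; 2065 to 3568) awake, a log2 difference of 1.01 (SE 0.127, edgeR adjusted p = 0.00012). The groups did not overlap and the GA mean was higher in 4 of 4 runs. The lower calls included adenylyl cyclases, which make cyclic AMP. They were Adcy8 in DG granule-like nuclei (log2 difference -1.55, SE 0.176, edgeR adjusted p = 0.000339) and in astrocyte-like and subicular or cortical nuclei, and Adcy2 in astrocyte-like nuclei (-0.78, SE 0.138, edgeR adjusted p = 0.00151). Nedd4l, a ubiquitin ligase of membrane channels, was lower in CA1-like, subicular or cortical and astrocyte-like nuclei (log2 differences of -0.39, -0.59 and -0.44). The rest were Grm5, a glutamate receptor signalling through Gq, in DG granule-like nuclei (-0.45), Pld2, a phospholipase D that acts on TREK-1, in astrocyte-like nuclei (-0.67) and Ywhaz, a 14-3-3 protein, in the subicular or cortical class (-0.41). With each mouse left out in turn, Pex5l, Adcy8 in DG granule-like, Adcy2 in astrocyte-like and Nedd4l in subicular or cortical nuclei were called in 20 of 20 fits. Adcy8 was called in only 6 of 20 in astrocyte-like nuclei (edgeR adjusted p up to 0.184) and in 11 of 20 in the subicular or cortical class (up to 0.146), and Ywhaz in 9 of 20 (up to 0.123). The other 4 calls held in 14 to 18 of 20. With the run as a block Adcy8 in astrocyte-like nuclei was also lost (edgeR adjusted p = 0.0641).

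**Figure D5:**
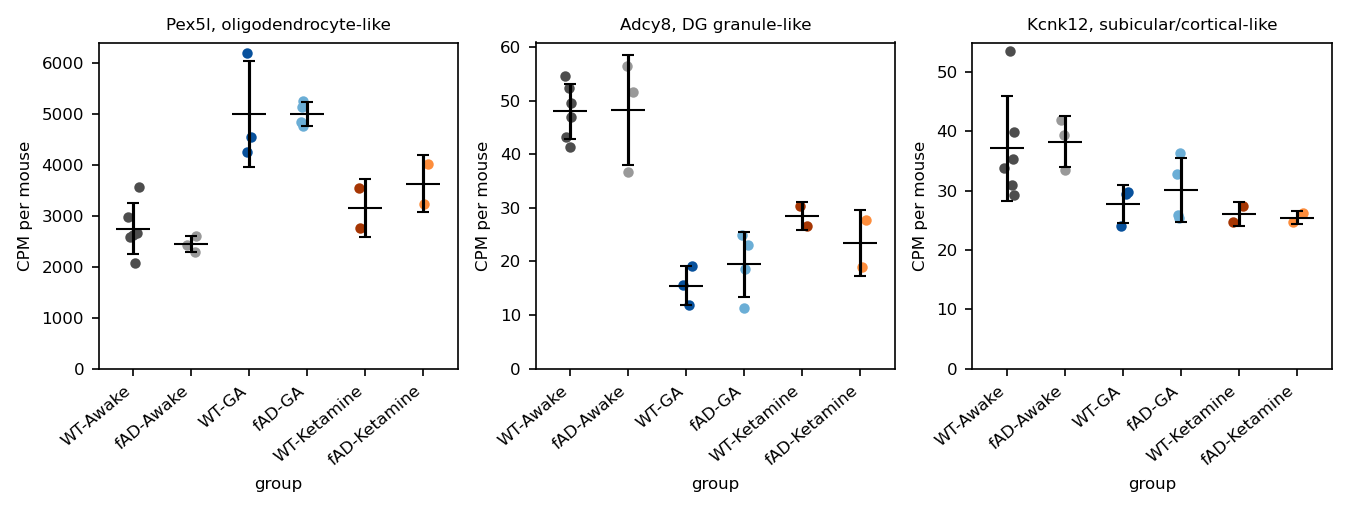
CPM by group of Pex5l in oligodendrocyte-like, Adcy8 in DG granule-like and Kcnk12 in subicular or cortical nuclei, 1 point per mouse with bars for mean ± SD. GA mice lie above all awake mice for Pex5l (4249.9 to 6197 against 2065 to 3568 CPM) and below all of them for Adcy8 (11.3 to 25.0 against 36.7 to 56.4 CPM), and overlap them for Kcnk12.

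Under ketamine 7 of the 203 partner pairs were lower than awake and 0 higher (3.45% of the pairs, beside 7.8% of all tests). They were Adcy8 in CA1-like (log2 difference -1.17) and DG granule-like nuclei (-0.85) and Adcy5 in CA3-like (-1.23) and fibroblast-like nuclei (-1.15). The rest were Chrm1 in DG granule-like nuclei (-0.39), and Adcy2 (-0.54) and Pld2 (-0.83) in astrocyte-like nuclei. With the run as a block 1 of the 7 was left, Adcy8 in CA1-like nuclei (log2 difference -1.48, edgeR adjusted p = 0.0181), beside 0.0559% of all tests in that fit, where mouse 29 is the only awake mouse of the ketamine run. The other 6 lost the call but kept their direction, with log2 differences of -1.03 and -0.49 for Adcy8 and Chrm1 in DG granule-like, -0.85 and -0.88 for Adcy5 in CA3-like and fibroblast-like, and -0.69 and -0.60 for Adcy2 and Pld2 in astrocyte-like nuclei. With each mouse left out in turn, Adcy2 in astrocyte-like nuclei was called in 4 of 20 fits, Adcy5 in fibroblast-like nuclei in 4 of 14 and the other 5 in 10 to 20 of 20. Ketamine against GA gave 6 higher calls, of Copb1, Gnaq, S100a10, Ywhab and Ywhaz in fibroblast-like nuclei and Ywhaz in the subicular or cortical class, and 1 lower call, Adcy5 in CA3-like nuclei (-1.17), again 3.45% of the pairs beside 5.94% of all tests. Of these, 0 were called by edgeR with the run as a block, beside 0.00916% of all tests called in that fit. There 15 of the 203 pairs had an unadjusted p under 0.05, a count whose share over all tests is not given here. In fibroblast-like nuclei mouse 29, the awake mouse of the ketamine run, had 218 CPM of Copb1 beside a ketamine mean of 212 CPM, 311 beside 296 CPM of Gnaq and 356 beside 381 CPM of Ywhaz. It had less S100a10 (567 beside 862 CPM) and Ywhab (228 beside 303 CPM) than the ketamine mean. Adcy8 in DG granule-like nuclei, and Adcy2 and Pld2 in astrocyte-like nuclei, were called lower in both anesthetized states, which share the awake mice. For Adcy8 in DG granule-like nuclei the ketamine difference with the run as a block was -1.03 (edgeR adjusted p = 0.521). Mouse 29 had 52.3 CPM of it beside 19.0 to 30.3 CPM in the ketamine mice. Genotype and the interaction gave 0 partner calls by edgeR, with 8 and 5 pairs at an unadjusted p under 0.05 (3.94% and 2.46%, beside 1.39% and 3.13% of all tests). The run as a block gave 0 calls in both and 18 and 10 such pairs. The unadjusted share of all tests in that fit is not given here, so nothing is read from these 2 counts.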

How the data were processed

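The authors deposited raw UMI counts per gene and nucleus for 20 libraries, made with Cell Ranger 5.0.0 on mm10 per the file headers and the submitters' processing notes, with intronic reads included. The study's methods also name removal of ambient RNA and doublets, but whether these counts had it is not given in the sources used here. Nuclei with at least 200 genes were assigned to 15 classes by marker seeds (3 markers, 2 ahead of the next class) and a likelihood refined in 2 passes without Kcnk or Hcn genes. Nuclei with a margin under 10 or a mixed profile (a doublet filter) were left out, and no doublet caller was run.

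Counts were summed per mouse and class over at least 50 nuclei. The 10 classes with enough mice (17 for microglia-like, 14 for fibroblast-like) were tested by the quasi-likelihood test of edgeR 4.0.16 under R 4.3.3, after its default expression filter and TMM scaling. Each class had 1 fit over all 6 groups, with genotypes weighted equally and Benjamini-Hochberg adjustment over all its genes (threshold 0.05). DESeq2 1.42.0 was an alternative. Class levels were compared by permutation tests with 100000 resamples in scipy 1.17.1. The code was tested on simulated data. All 9 members are described, other family genes at 10 CPM or more or when called, and partners when called. Part of the family list is not reported here. Members, lists and comparisons were chosen with earlier results of these data known.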

Additional observations from a re-analysis of the deposited data

Results flagged for a closer look

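Dixon's test for a value far from the rest of its group, run on the members' levels in 35 groups of 4 to 6 mice for the pairs named above, marked 3 values, and chance alone marks about 1 in 20 groups. Kcnk1 in OPC-like nuclei was 16.6 CPM in fAD-GA mouse 11, against 54.1 to 60.8 CPM in the other 3 fAD-GA mice. Kcnk2 in OPC-like nuclei was 140.9 CPM in the same mouse, against 86.6 to 92.7 CPM in the others. These values rest on 2 and 17 UMIs of 120620 in 134 nuclei, and their exact Poisson 95% intervals (2.01 to 59.9 and 82.1 to 225.7 CPM) overlap the range of the others. Kcnk10 in CA3-like nuclei was 97.8 CPM in WT-Awake mouse 19, against 78.7 to 83.9 CPM in the other 5 WT-Awake mice.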

How the results depend on the processing

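Over 53 named differences and 1389 alternative values, 1130 kept their direction and side of the threshold, 232 lost the call, 21 gained it and 6 changed direction. Counts of calls stand here with their pairs tested and the share of all tests called in that setting. Exceptions are the fits that left out a mouse, and genotype and the interaction. Nothing is read from any of these counts about the members. For GA against awake the 1 call of 52 became 2 of 52 with DESeq2 (5.3% of all tests), 1 of 89 without a filter (1.96%) and 1 of 54 with mixed nuclei kept (4.16%). It was 0 of 40 with the marker gate alone (nuclei assigned by marker counts without the likelihood; 2.65%), 0 of 52 without the 5% of nuclei with most UMIs (3.84%), 0 of 50 with only the 16 awake and GA mice (3.65%) and 0 of 51 without mice 1 to 4 (1.98%). With the run as a block it was 1 of 52 (7.26%), Kcnk2 in CA1-like nuclei in place of Kcnk10. For ketamine against awake the 1 call of 52 became 3 of 52 with DESeq2 (8.87%), 2 of 89 without a filter (4.32%) and 2 of 54 with mixed nuclei kept (7.63%), the last 2 settings calling Kcnk2 in fibroblast-like and Kcnk10 in OPC-like nuclei. It was 0 of 52 with the run as a block (0.0559%) and 0 of 51 without mice 1 to 4 (4.57%). With the marker gate alone, which could not test the fibroblast-like class, the 2 calls of 40 (3.92%) were Kcnk10 in CA3-like and in OPC-like nuclei, and the 1 call for ketamine against GA (2.42%) was Kcnk10 in CA3-like nuclei. For ketamine against GA the 1 call of 52 became 2 of 89 without a filter (3.49%), 0 of 52 with the run as a block (0.00916%) and 0 of 51 without mice 1 to 4 (3.26%). Leaving out each mouse in turn gave 0 to 2, 0 to 2 and 0 to 1 calls, and the shares of all tests in those fits are not given here. Genotype and the interaction stayed at 0 in each setting run. Of the neighbouring class pairs, 31 of 92 differed, 24 with a pseudocount of 5, and 17 of the 72 that the marker gate alone could test. The direction changed with the run as a block for ketamine against GA in Kcnk3 in DG granule-like (-0.19), Kcnk1 in OPC-like (0.62), Kcnk2 (0.26), Ywhab (-0.15) and Ywhaz (-0.52) in fibroblast-like nuclei, and with the marker gate alone for ketamine against awake in Kcnk10 in the subicular or cortical class (0.041); the cause was not tested. Mouse numbers are not shared between groups, so mice were matched only through the run of mouse numbers, used as a block above. The study's methods name processing in batches that spanned the awake and GA groups, but the sources used here do not say which mice formed a batch, and the runs were taken from the numbers in the labels. Keeping mixed nuclei and leaving out mice 1 to 4 were chosen after the data were seen. The marker gate alone could not test interneuron-like and fibroblast-like classes. Depth limits Hcn4, which passed the filter in no class.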
